A study of Mus musculus with 8 samples.

Results

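The antioxidant enzyme genes described here are 10 transcripts, taken by symbol from a table of 55401 genes measured by bulk RNA-seq of tibialis anterior (TA) muscles. They are the superoxide dismutases *Sod1*, *Sod2* and *Sod3*, the peroxide-removing enzymes *Cat*, *Gpx1*, *Gpx3*, *Gpx4* and *Prdx3*, and the reductases *Nqo1* and *Txnrd1*. The rule that picked them names the enzymes and uses no measured value, although earlier results of these data were known when it was written. All 10 of 10 had enough reads to be tested. The 8 muscles came from male mice aged 6 mo, of which 4 were wild type (WT, C57/Bl6 strain) and 4 were *mdx5cv*, a mouse model of Duchenne muscular dystrophy with a mutation in *Dmd* on the B6 background. No mouse had been treated, and each muscle was used whole, so the RNA is that of all its cell types together. The labels number the muscles 1 to 4 within each genotype and do not say that each came from its own mouse, so every p-value measures the spread between these samples.

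Superoxide, which leaks from the respiratory chain and is also made by oxidases of the membrane and of immune cells, is converted to hydrogen peroxide by superoxide dismutases. SOD1 does this in the cytosol, SOD2 in the mitochondrial matrix and SOD3 outside the cell. Hydrogen peroxide is then removed by catalase in peroxisomes, by glutathione peroxidases with glutathione, and by peroxiredoxins with thioredoxin, and NADPH is the source of the electrons for both of the latter. Muscle fibers hold many mitochondria and make these oxidants when they contract, and oxidative damage is a known feature of dystrophin-deficient muscle.

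The mutated gene was examined first. *Dmd*, which encodes dystrophin, had normalized counts of 6914, 8155, 6579 and 6169 in WT muscles 1 to 4 and of 4399.6, 4056, 3941 and 3461 in *mdx5cv* muscles 1 to 4. The groups did not overlap, and the log2 fold change of *mdx5cv* over WT was -0.81 (SE 0.12, adjusted p = 0.000177, limma). A normalized count is the number of reads of a gene divided by a size factor for its library, and the library is the RNA-seq sample of 1 muscle. The libraries held 13862559 to 14921057 reads in WT and 13175524 to 14502624 in *mdx5cv*. Mitochondrial ribosomal RNA made up 25.9% to 33.2% of these reads in WT and 23.0% to 28.8% in *mdx5cv*. It is counted in every total over all genes used here, also where libraries are scaled to equal totals. The size factors were 0.873 to 0.944 in WT and 1.06 to 1.25 in *mdx5cv*, so they differed between the genotypes as well as within them. The 8 markers of skeletal muscle, *Ckm*, *Acta1* and *Ttn* among them, held 18.1% to 21.5% of the normalized counts in WT and 18.4% to 21.7% in *mdx5cv*. Their summed normalized count was 2.96e+06 to 3.16e+06 in WT and 2.00e+06 to 2.70e+06 in *mdx5cv*, with no overlap. The total over all genes was also lower in *mdx5cv* (1.09e+07 to 1.37e+07) than in WT (1.47e+07 to 1.69e+07). The share alone therefore does not show an unchanged level of these markers. The *mdx5cv* muscle 4 stood apart from the other 3, with the lowest sum of muscle markers and the highest sum of macrophage markers.

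Some of the 10 genes have a sequence feature that the choice by name did not use. *Gpx1*, *Gpx3*, *Gpx4* and *Txnrd1*, 4 of the 10, encode selenoproteins, whose messenger RNA reads an in-frame TGA (UGA in the RNA) as selenocysteine in place of a stop, against 24 of 55450 genes with such a codon in the GENCODE M21 annotation. The coding sequence around this codon is shown because these 4 transcripts can be translated in full only where selenocysteine is inserted there, and they did not move together in the dystrophic muscle. Capitals mark the selenocysteine codon, with up to 18 bases of coding sequence on either side, 5′ to 3′, from GENCODE M21 transcripts on GRCm38.
*Gpx1*, codon 47 of 201, chr9:108339451-108339453, plus strand: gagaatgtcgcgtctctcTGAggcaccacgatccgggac
*Gpx3*, codon 73 of 226, chr11:54907256-54907258, plus strand: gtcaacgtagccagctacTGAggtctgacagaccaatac
*Gpx4*, codon 73 of 197, chr10:80054737-80054739, plus strand: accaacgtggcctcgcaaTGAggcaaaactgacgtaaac
*Txnrd1*, codon 498 of 499, chr10:82896037-82896039, plus strand: atcctccagtctggctgcTGAggt
In the 3 glutathione peroxidases the codon lies in the first part of the coding sequence, and in *Txnrd1* it is the codon before the last, so the printed stretch ends with the coding sequence.

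The promoters of the genes that moved furthest in each direction are shown next, as the 250 bases before to 50 bases after the transcript start in RefSeq on GRCm38.p6. A promoter was found for 9 of the 10 genes, with *Sod3* the exception, and they had 14 promoters in all. Capitals mark the GC box GGGCGG, the motif bound by Sp1, on either strand, so that CCGCCC is the same box read on the other strand.
*Gpx1*, chr9:108338830-108339129, plus strand: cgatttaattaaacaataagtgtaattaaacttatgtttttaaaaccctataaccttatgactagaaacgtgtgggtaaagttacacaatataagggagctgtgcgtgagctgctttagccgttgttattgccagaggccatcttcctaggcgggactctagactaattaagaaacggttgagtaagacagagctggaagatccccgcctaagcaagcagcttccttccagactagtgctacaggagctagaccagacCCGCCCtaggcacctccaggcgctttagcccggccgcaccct
*Cat*, chr2:103485104-103485403, minus strand: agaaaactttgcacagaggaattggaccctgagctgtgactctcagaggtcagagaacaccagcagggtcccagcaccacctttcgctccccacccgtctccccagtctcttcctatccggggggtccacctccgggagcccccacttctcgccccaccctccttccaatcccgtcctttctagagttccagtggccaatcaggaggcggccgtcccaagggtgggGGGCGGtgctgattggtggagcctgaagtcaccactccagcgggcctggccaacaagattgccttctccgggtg
*Sod2*, chr17:13007589-13007888, plus strand: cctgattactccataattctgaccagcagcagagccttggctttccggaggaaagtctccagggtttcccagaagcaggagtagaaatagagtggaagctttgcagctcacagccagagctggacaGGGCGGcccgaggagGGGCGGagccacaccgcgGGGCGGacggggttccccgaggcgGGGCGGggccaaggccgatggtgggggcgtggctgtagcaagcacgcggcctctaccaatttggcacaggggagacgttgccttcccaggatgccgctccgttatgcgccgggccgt
The *Sod2* promoter held 4 GC boxes, at 124, 109, 91 and 67 bases before the start, whereas *Gpx1* and *Cat* each held 1. A GC box was present in 11 of the 14 promoters, against 35.66% of the 32851 mouse promoters of the same length. Each of the 9 genes had a GC box in some promoter, a count per gene that has no such share beside it. The *Gpx4* promoters at chr10:80053315-80053614 and chr10:80053409-80053708 overlap and hold the same GC boxes, so the 14 promoters are not all separate. The TATA box TATAAA, also searched on both strands, was present for *Nqo1*, *Sod1* and *Prdx3*, in 3 of 14 promoters against 13.62% of all. It lay on the strand of the gene for *Nqo1*, 29 bases before the start, and for *Sod1*, 37 bases before it. For *Prdx3* the match was on the opposite strand, 239 bases before the start.

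The antioxidant response element, through which the transcription factor NRF2 acts, was searched as its core TGACNNNGC on both strands. It was present in 2 of the 14 promoters against 12.39% of all 32851, and its matches are shown because NRF2 is the textbook regulator of several of these genes. *Nqo1*, a textbook target, had no match in its window. Capitals mark the match, which is on the strand opposite to the gene in both.
*Txnrd1*, 92 bases before the start, in chr10:82858956-82859255, plus strand: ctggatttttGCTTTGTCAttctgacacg
*Sod1*, 56 bases before the start, in chr16:90220512-90220811, plus strand: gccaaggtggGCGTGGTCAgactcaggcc
The AP-1 motif TGAGTCA was found in 0 of the 14 promoters and in 5.202% of all. A match is a string of letters and not a measured binding site, and elements outside these windows were not searched.

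In *mdx5cv* TA muscles, 2 of the 10 antioxidant enzyme genes rose, 4 fell and 4 did not pass the test. *Gpx1* and *Sod3* were higher, and *Sod1*, *Sod2*, *Cat* and *Prdx3* were lower. *Gpx3*, *Gpx4*, *Nqo1* and *Txnrd1* did not pass. The test was limma on log2(normalized count + 1), fitted to the 13677 genes whose normalized counts averaged 10 or more, and a gene was called at a Benjamini-Hochberg adjusted p under 0.05. Over all genes tested, 20.9% were called higher, 20.1% lower and 40.9% in either direction, so that a call was common in this tissue. The 6 calls are 60% of the 10 genes. With a log2 fold change of at least 1 as a further threshold, *Gpx1* was the 1 gene higher, against 10.3% of all genes, and 0 were lower, against 3.27%. The groups did not overlap for 5 of the 10 genes (*Sod2*, *Sod3*, *Cat*, *Gpx1* and *Prdx3*), against 40.1% of all genes. The median log2 fold change of the 10 genes was -0.22, beside 0.00 over all genes tested. edgeR and DESeq2 on the recovered reads each called 2 genes higher and 4 lower.

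**Figure D1:**
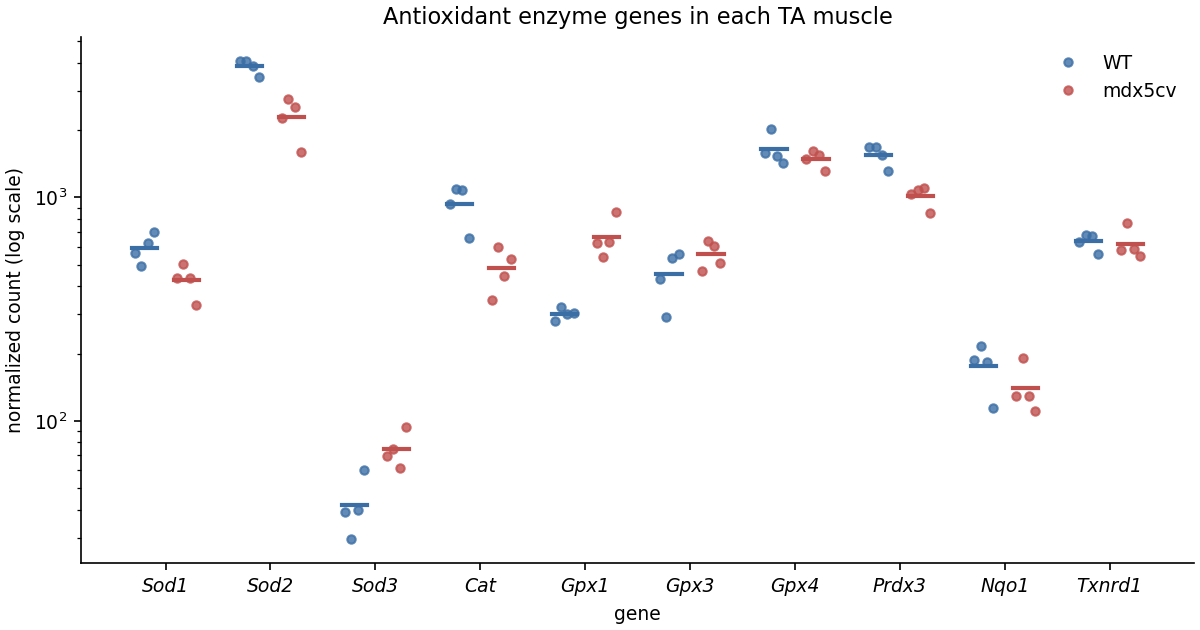
Normalized count of each antioxidant enzyme gene on a log axis, with 1 point per TA muscle (4 WT, 4 *mdx5cv*) and a line at the mean of each genotype. All 4 *mdx5cv* points lie above the WT points for *Gpx1* (540 to 857 against 279.6 to 324) and *Sod3*, and below them for *Sod2*, *Cat* and *Prdx3*.

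Among the superoxide dismutases, the 2 intracellular enzymes fell and the extracellular enzyme rose. *Sod2* (chr17:13006846-13040063), the manganese enzyme of the mitochondrial matrix, had normalized counts of 4064, 4091, 3871 and 3465 in WT muscles 1 to 4 and of 2262, 2747, 2534 and 1604 in *mdx5cv* muscles 1 to 4. Every *mdx5cv* muscle lay below every WT muscle, and the lowest value was that of *mdx5cv* muscle 4. WT muscles averaged 3873 ± 289 and *mdx5cv* muscles 2287 ± 497 (SD, n = 4), which is a log2 fold change of -0.79 (SE 0.15, adjusted p = 0.00109, limma).

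*Sod1* (chr16:90220754-90226329), the copper and zinc enzyme of the cytosol, had normalized counts of 563, 491, 626 and 703 in WT and of 437, 506, 434 and 331 in *mdx5cv*. The groups overlapped, since *mdx5cv* muscle 2 lay above WT muscle 2, and the other 3 *mdx5cv* muscles lay below all WT muscles. WT muscles averaged 596 ± 90.3 and *mdx5cv* muscles 427 ± 72.1 (SD, n = 4), and the log2 fold change was -0.48 (SE 0.14, adjusted p = 0.0163, limma). The adjusted p ranged from 0.00729 to 0.0485 when each muscle was left out in turn. With all libraries scaled to equal totals in place of the size factors, *Sod1* was not called (log2 fold change -0.13, adjusted p = 0.498, limma). That scaling raised the median over the whole table from 0.00 to 0.36 on the log2 scale, so that *Sod1* lay below this median under both scalings.

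*Sod3* (chr5:52363791-52371418), which is secreted and bound to the matrix around cells and vessels, had the fewest reads of the 10 genes, 27 to 118 per library. Its normalized counts were 39.0, 29.6, 39.8 and 60.4 in WT and 69.5, 74.5, 61.2 and 94.3 in *mdx5cv*. The groups did not overlap, although WT muscle 4 came within 1 normalized count of *mdx5cv* muscle 3. WT muscles averaged 42.2 ± 13.0 and *mdx5cv* muscles 74.9 ± 14.1 (SD, n = 4), which is a log2 fold change of 0.84 (SE 0.22, adjusted p = 0.0081, limma). In whole muscle, more cells of a type and more RNA per cell cannot be told apart, and this holds for each rise and fall given here. Markers of fibroblasts, a cell type that makes matrix proteins, rose in the same muscles. Of these 10 markers 9 were called higher, or 8 to 9 when each muscle was left out in turn. Their summed normalized count was 7780.4 to 11818 in WT and 27824 to 53243 in *mdx5cv*, and their part in the *Sod3* result was not tested.

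The enzymes that remove peroxide diverged. *Cat* (chr2:103453849-103485160) encodes catalase, which breaks down hydrogen peroxide in peroxisomes without an electron donor. It had normalized counts of 929, 1085, 1075 and 659 in WT and of 348, 602, 445 and 528 in *mdx5cv*. The groups did not overlap, with WT muscle 4 the lowest of its group and *mdx5cv* muscle 1 the lowest of all. WT muscles averaged 937 ± 199 and *mdx5cv* muscles 481 ± 109 (SD, n = 4), and the log2 fold change of -0.96 was the largest fall among the 10 genes (SE 0.18, 95% confidence interval -1.36 to -0.57, adjusted p = 0.00109, limma).

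*Prdx3* (chr19:60864051-60874556) encodes the peroxiredoxin of the mitochondrial matrix, which is kept active by thioredoxin 2. Its normalized counts were 1677, 1677, 1542 and 1308 in WT and 1035, 1078, 1103 and 853 in *mdx5cv*, with no overlap. The muscle with the lowest value in each genotype was muscle 4. The mean fell from 1551 ± 174 to 1017 ± 113 (SD, n = 4), which is a log2 fold change of -0.61 (SE 0.12, adjusted p = 0.00115, limma). With equal totals it was -0.25 and not called (adjusted p = 0.0552, limma), and lay below the median of all genes under that scaling.

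*Gpx1* (chr9:108338903-108340343), the selenium-dependent glutathione peroxidase of the cytosol and mitochondria, was the only gene of the 10 that changed by more than a log2 unit. It had normalized counts of 279.6, 324, 301 and 303 in WT muscles 1 to 4 and of 628, 539.6, 629 and 857 in *mdx5cv* muscles 1 to 4. The WT muscles were close together, and each *mdx5cv* muscle lay above all of them, with *mdx5cv* muscle 4 the highest. WT muscles averaged 302 ± 18.0 and *mdx5cv* muscles 664 ± 136 (SD, n = 4), a 2.17-fold rise (log2 fold change 1.12, SE 0.13, 95% confidence interval 0.83 to 1.40, adjusted p = 3.60e-05, limma). Without *mdx5cv* muscle 4 the log2 fold change was 0.99, still called but under the threshold of 1.

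The other 2 glutathione peroxidases did not pass the test. *Gpx4* (chr10:80047166-80056439), which reduces peroxides of membrane lipids, had normalized counts of 1587, 2026, 1534 and 1421 in WT and of 1488, 1617, 1546 and 1318 in *mdx5cv*. The groups overlapped through most of their range (log2 fold change -0.13, 95% confidence interval -0.39 to 0.13, adjusted p = 0.418, limma). *Gpx3* (chr11:54902453-54910377), the secreted enzyme of plasma and extracellular fluid, had normalized counts of 431, 291, 533 and 559 in WT and of 471, 639.6, 604 and 509.8 in *mdx5cv*. WT muscle 2 was the lowest and *mdx5cv* muscle 2 the highest, and the other muscles overlapped (log2 fold change 0.33, 95% confidence interval -0.068 to 0.72, adjusted p = 0.172, limma). With equal totals *Gpx3* was called higher (log2 fold change 0.68, adjusted p = 0.0110, limma) and *Gpx4* was at 0.23 (adjusted p = 0.103, limma). Without WT muscle 2 *Gpx3* was at 0.13 and *Gpx4* at -0.023, and without *mdx5cv* muscle 4 *Gpx4* was at -0.07.

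The 2 reductases did not pass the test either. *Txnrd1* (chr10:82833951-82897712), the cytosolic thioredoxin reductase, had normalized counts of 634, 676, 673 and 556 in WT and of 579, 771, 587 and 549 in *mdx5cv*. The groups overlapped, and WT muscles averaged 635 ± 55.8 and *mdx5cv* muscles 621 ± 101 (SD, n = 4). Its log2 fold change of -0.039 was the smallest of the 10 genes, with a 95% confidence interval of -0.30 to 0.22. It depended on the scaling, and with equal totals *Txnrd1* was called higher (0.32, adjusted p = 0.0339, limma), close to the median of all genes under that scaling.

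*Nqo1* (chr8:107388225-107403206), which reduces quinones by a single step that avoids radical intermediates, had normalized counts of 188, 216, 184 and 114 in WT and of 129.7, 191, 129.7 and 111 in *mdx5cv*. The *mdx5cv* values fell within or just under the WT range, whose lower end was set by WT muscle 4 (log2 fold change -0.31, 95% confidence interval -0.75 to 0.13, adjusted p = 0.242, limma). Without WT muscle 4 it was called lower (log2 fold change -0.50, adjusted p = 0.0384, limma). With equal totals it was 0.043, so its sign depended on the scaling.

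**Figure D2:**
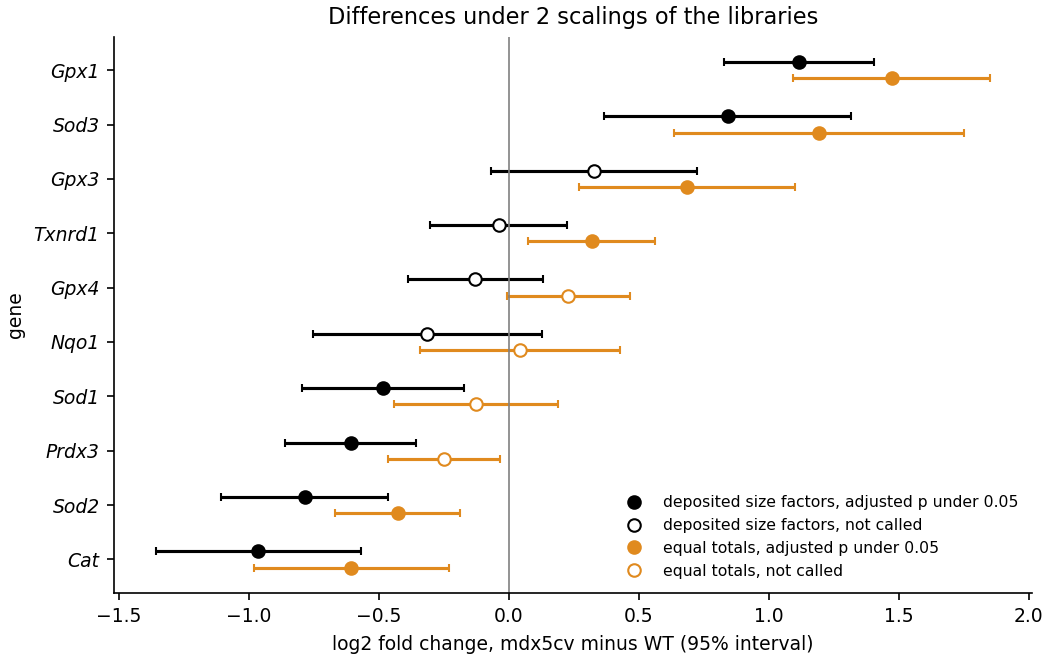
Log2 fold change of *mdx5cv* over WT for each antioxidant enzyme gene (limma estimate with its 95% confidence interval), in black with the deposited size factors and in orange with equal totals, filled where called and open where not. *Gpx1* (1.12) and *Sod3* (0.84) lie above 0 and *Cat* (-0.96) and *Sod2* (-0.79) below 0 under both scalings, while *Gpx4*, *Nqo1* and *Txnrd1* cross 0 with equal totals.

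Levels of different genes were compared per kilobase of merged exons, in normalized counts. In WT muscle *Prdx3* (1049 ± 118 per kilobase, SD, n = 4) and *Gpx4* (952 ± 154) were the most abundant of the 10 genes, and on this length they did not differ beyond their spread. They were followed by *Sod2* (387), *Cat* (359), *Gpx3* (250.1), *Gpx1* (209), *Sod1* (150.1), *Nqo1* (113), *Txnrd1* (89.6) and *Sod3* (11.3), all per kilobase. In *mdx5cv* muscle *Gpx4* (866 per kilobase) was above *Prdx3* (688), and *Gpx1* (461) moved from the sixth place to the third, above *Gpx3* (307), *Sod2* (228) and *Cat* (184). The order depended on the length used, most of all for *Sod1*, whose merged exons span 3970 bases against 641 in the principal transcript. Per kilobase of the principal transcript *Sod1* was at 929.5 in WT and 666 in *mdx5cv*, above *Sod2* (661 and 390.2), and in the third place of both genotypes. On that scale *Gpx4* (1712 and 1556) lay above *Prdx3* (1049 and 688) in both genotypes, and *Gpx1* moved from the seventh place to the fourth.

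Among the 3 glutathione peroxidases *Gpx1* held a larger share in each *mdx5cv* muscle than in any WT muscle. Per kilobase of merged exons *Gpx1* held 14.8% ± 0.61 of their summed level in WT and 28.2% ± 5.82 in *mdx5cv* (SD, n = 4), with 14.3% to 15.7% in the WT muscles and 22.5% to 36.3% in the *mdx5cv* muscles. *Gpx4* held 67.2% ± 6.10 and 53.0% ± 4.41, and *Gpx3* 18.0% ± 5.61 and 18.7% ± 2.20. With the length of the principal transcripts the share of *Gpx1* was 12.4% in WT and 24.6% in *mdx5cv*. These shares are descriptions without a test.

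Ratios of 2 genes within a library do not depend on the scaling between libraries, and 7 ratios were tested by an exact permutation test (two-sided, 70 arrangements, smallest possible p 0.0286). The widest shift was that of *Cat* to *Gpx1*, both of which remove hydrogen peroxide. The log2 ratio averaged 1.61 ± 0.33 in WT muscles and -0.47 ± 0.44 in *mdx5cv* muscles (SD, n = 4), a difference of -2.08 in ratios not corrected for gene length (exact p = 0.0286, 0.0667 after Benjamini-Hochberg adjustment over the 7 ratios). The log2 ratio of *Gpx1* to *Gpx4* was -2.43 ± 0.18 in WT and -1.19 ± 0.41 in *mdx5cv*, a difference of 1.25 with the same p-values (exact permutation test). The log2 ratio of *Sod3* to *Sod1*, the extracellular to the cytosolic enzyme with the same metals, was -3.86 ± 0.22 in WT and -2.51 ± 0.47 in *mdx5cv*, a difference of 1.34, again with these p-values (exact permutation test). In these 3 ratios the groups did not overlap, which is the most that 4 muscles against 4 can show, and none passed 0.05 after the adjustment.

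The remaining 4 ratios overlapped between the genotypes. *Sod2* to *Sod1* differed by -0.30 (exact permutation p = 0.143), *Prdx3* to *Sod2* by 0.18 (exact permutation p = 0.114), *Gpx3* to *Gpx1* by -0.79 (exact permutation p = 0.0857) and *Nqo1* to *Txnrd1* by -0.28 (exact permutation p = 0.114), all on the log2 scale. When each muscle was left out in turn these differences ran from -0.44 to -0.18 (the latter without WT muscle 2), from 0.099 (without *mdx5cv* muscle 4) to 0.24, from -1.02 to -0.62 and from -0.41 to -0.19. *Prdx3* and *Sod2*, the matrix enzymes, had fallen by 0.61 and 0.79 each. The log2 ratio between them averaged -1.32 ± 0.058 in WT muscles and -1.15 ± 0.18 in *mdx5cv* muscles (SD, n = 4).

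**Figure D3:**
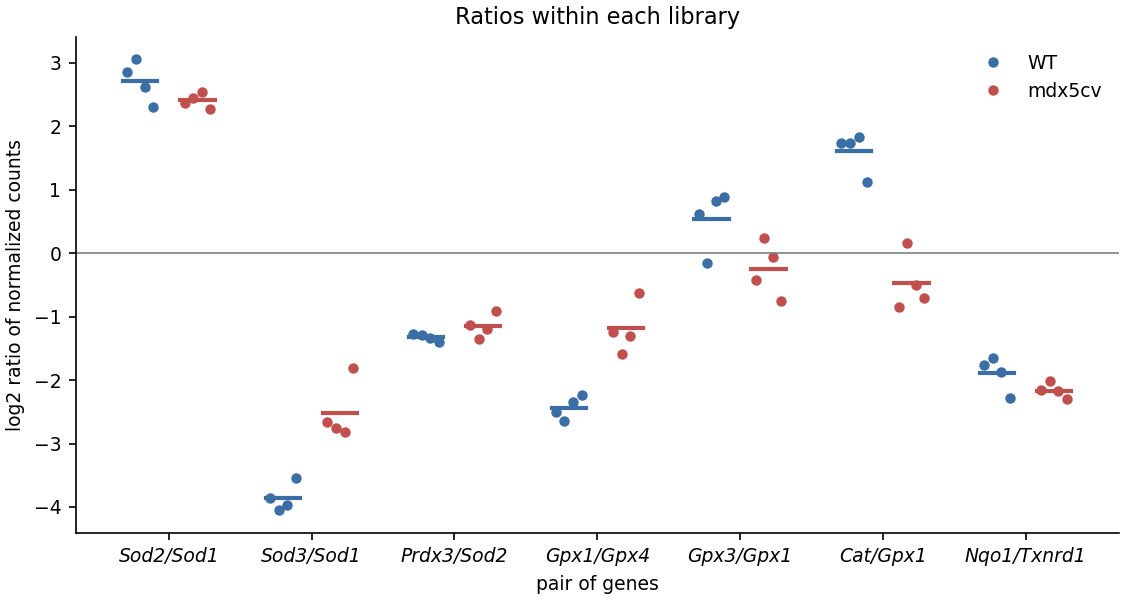
Log2 ratio of normalized counts for each of the 7 gene pairs, with 1 point per TA muscle and a line at the mean of each genotype. The groups are apart for *Cat* to *Gpx1* (means 1.61 in WT and -0.47 in *mdx5cv*), *Gpx1* to *Gpx4* and *Sod3* to *Sod1*, and overlap for the other 4 pairs.

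The genes that work beside the 10 enzymes were examined by lists, with the same limma fit and the same calls, beside 20.9% of all genes higher and 20.1% lower. Of the other peroxiredoxins and glutathione peroxidases, 2 of 7 tested rose and 3 fell. The 2 that rose, *Prdx4* (log2 fold change 1.47) and *Gpx8* (1.42), are enzymes of the endoplasmic reticulum, and their groups did not overlap. *Gpx7*, another enzyme of that compartment, did not pass (0.16, adjusted p = 0.531, limma). *Prdx1* (-0.46) and *Prdx6* (-0.36), both cytosolic, and *Prdx5* (-0.47), found in mitochondria and peroxisomes, fell. Without *mdx5cv* muscle 4 the count of falls was 1, with equal totals 3 genes were higher and 0 lower, and without a variance trend in limma 2 were higher and 0 lower. *Prdx6* lost its call in 5 of the 8 fits that left out 1 muscle.

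In the thioredoxin and glutaredoxin list, 2 of 13 genes rose and 3 fell. *Txn1* (0.62, adjusted p = 0.0062, limma), the cytosolic thioredoxin that TXNRD1 reduces, and *Sesn3* (0.56) rose. *Txnip*, the inhibitor of thioredoxin, had the largest fall (-1.05), with normalized counts of 6322, 4856, 5710 and 7682 in WT and of 2247, 5063, 4112 and 1554 in *mdx5cv*. Its groups overlapped at *mdx5cv* muscle 2, and DESeq2 did not call it (adjusted p = 0.0549). *Glrx3* (-0.73) and *Txnrd3* (-0.67) also fell. The counts of this list were 6 higher and 2 lower with equal totals, and 2 higher and 6 lower with centring on the median. The mitochondrial partners of *Prdx3* did not pass, with *Txn2* at 0.27 (adjusted p = 0.405, limma) and *Txnrd2* at -0.33 (adjusted p = 0.0956, limma). *Srxn1*, which repairs over-oxidized peroxiredoxins, was at 0.017 (adjusted p = 0.93, limma).

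Glutathione synthesis and recycling had 1 call among 8 genes tested, the fall of *Chac2* (-0.67), which degrades glutathione. *Slc7a11*, also in this list, was removed by the filter on low values and is not among these 8. DESeq2 on the recovered reads called it higher (log2 fold change 2.20, adjusted p = 0.0065). Both with DESeq2 and with limma without that filter, 1 of 9 genes was higher and 1 lower. With equal totals 2 genes of this list were higher and 0 lower. *Gsr*, the glutathione reductase that serves the glutathione peroxidases, was at -0.22 (adjusted p = 0.149, limma). The glutathione transferases, which conjugate glutathione to reactive compounds, had 7 of 13 genes lower and 0 higher. The median of this list was -0.49 beside 0.00 for all genes. *Mgst1*, a membrane-bound transferase that also acts on lipid peroxides, fell from 306 ± 83.9 to 77.8 ± 7.63 normalized counts (SD, n = 4, log2 fold change -1.93). *Gstm7* (-1.27, with 5 to 20 reads per library) and *Gsta4* (-0.97) followed. With equal totals 6 were lower and 0 higher, and the median of the list was -0.13 beside 0.36 for all genes. Transferases of the *Gstm* family are close in sequence and may share reads.

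NRF2 and its regulators had 2 of 9 genes higher and 2 lower. *Nfe2l2*, which encodes NRF2, had normalized counts of 317, 287, 342 and 292 in WT and of 383, 428, 366 and 474 in *mdx5cv*, with no overlap (log2 fold change 0.41, adjusted p = 0.0117, limma). *Keap1*, which holds NRF2 for degradation, fell (-0.36, adjusted p = 0.0189, limma), as did *Cul3* (-0.78), the scaffold of the ubiquitin ligase that KEAP1 serves, and *Mafg* (0.41), a partner of NRF2 on DNA, rose. With equal totals 5 of the 9 were higher and 1 lower, and *Keap1* was at -0.0031 (adjusted p = 0.984, limma). *Keap1* was not called without WT muscle 3 and *Mafg* not without *mdx5cv* muscle 1, 2 or 3. In the list of other known NRF2 targets, 5 of 8 tested genes rose and 0 fell. They were the ferritin chains *Ftl1* (1.54) and *Fth1* (0.47), the heme-degrading enzymes *Hmox1* (1.03) and *Blvrb* (0.75), and the exporter *Abcc1* (0.35). *Hmox1* overlapped between the groups at WT muscle 4 and was not called without WT muscle 2, WT muscle 3 or *mdx5cv* muscle 4. *Ftl1*, *Fth1*, *Hmox1* and *Blvrb* are also abundant in macrophages, whose markers rose in the same muscles, and the part of these cells was not tested. *Nqo1* and *Txnrd1*, which are targets too, did not pass the test. Further targets were placed in other lists here. Among them *Gclc* (-0.067, adjusted p = 0.71, limma), *Gclm* (0.068, adjusted p = 0.748, limma) and *Srxn1* (0.017) did not pass, and *Me1* (-0.88) fell. Others rose, namely *Pgd* (1.25), *G6pdx* (0.96), *Tkt* (0.75) and *Txn1* (0.62), and DESeq2 called *Slc7a11* higher (2.20). These further targets are not a full set and went in different directions. The 5 rises of the list are therefore not a result for all NRF2 targets.

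NADPH supply had 3 of 9 genes higher and 1 lower. *Pgd* (1.25), *G6pdx* (0.96) and *Tkt* (0.75), enzymes of the pentose phosphate pathway, rose with no overlap of the groups, and *Me1* (-0.88), the cytosolic malic enzyme, fell. *Nnt*, the transhydrogenase that makes NADPH in the mitochondrial matrix, had 2 entries under its symbol. The entry with the most reads, used here, had only 8 to 23 reads per library and was at -0.24 (adjusted p = 0.648, limma). Without WT muscle 4 the count of falls in this list was 3, and without *mdx5cv* muscle 2 it was 2. With equal totals 5 of the 9 were higher and 1 lower. Of the genes for metal delivery and selenoprotein synthesis, 1 of 10 rose and 2 fell. *Selenop* (0.79), the plasma carrier of selenium, rose, and *Sephs2* (-0.68) and *Pstk* (-0.67), enzymes that make selenocysteine, fell. *Ccs* (0.26, adjusted p = 0.268, limma), the copper chaperone of SOD1, and *Atox1* (0.38, adjusted p = 0.0714, limma), another copper chaperone, did not pass, and without WT muscle 2 *Atox1* was called higher, for 2 rises in the list. With equal totals 6 genes of this list were higher and 1 lower, and *Pstk* was not called (adjusted p = 0.103, limma). The other selenoproteins had 2 of 12 genes higher, *Dio2* (2.41) and *Selenon* (1.05), and 2 lower, *Selenow* (-0.71), a selenoprotein abundant in muscle, and *Selenoo* (-0.54). Both falls lost their call with equal totals, with adjusted p-values of 0.0842 and 0.32 (limma), and 4 of the 12 were then higher.

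The organelles that house SOD2, PRDX3 and catalase were read through genes of other functions. Of 10 mitochondrial genes, most of them of the matrix and respiratory chain, 6 fell and 0 rose, with *Ndufs1* (-0.75), *Cox4i1* (-0.73) and *Atp5a1* (-0.66) the lowest. The median of the list was -0.48, beside -0.79 for *Sod2* and -0.61 for *Prdx3*. Of 10 peroxisomal genes 6 fell, led by *Abcd3* (-0.58), *Pex11a* (-0.56) and *Ehhadh* (-0.54). The median was -0.43, beside -0.96 for *Cat*. The falls in both lists depended on the scaling. With equal totals 2 mitochondrial genes were lower and 1 higher, and 0 peroxisomal genes were lower. The peroxisomal *Pex5* (0.38) and *Acaa1a* (0.37) were then called higher, close to the 0.36 of all genes. The medians of the mitochondrial and peroxisomal lists were -0.12 and -0.068 with equal totals, both below the 0.36 of all genes.

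**Figure D4:**
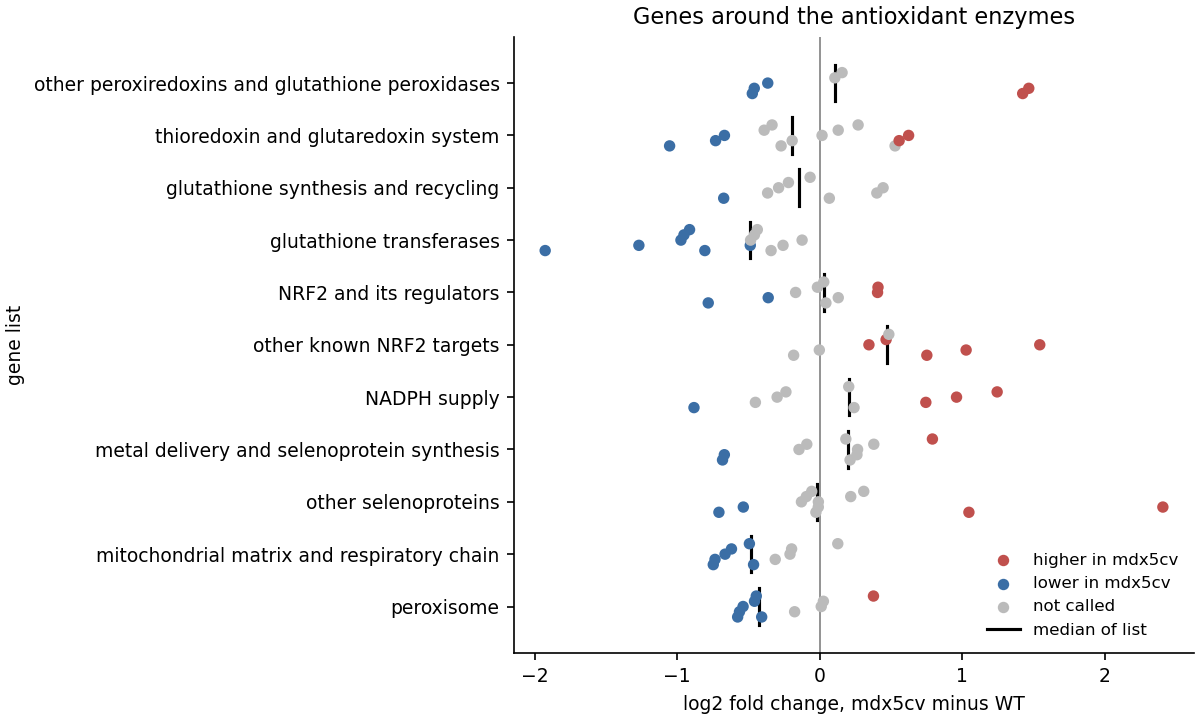
Log2 fold change of *mdx5cv* over WT for each gene tested in the pathway and organelle lists, with 1 point per gene, calls in color, and a bar at the median of each list. The glutathione transferases (median -0.49) and the mitochondrial genes (-0.48) have 0 genes called higher. The 8 genes listed as other NRF2 targets (median 0.48) have 0 called lower.

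Markers of other cell types differed between the genotypes in the same muscles. All 12 macrophage markers rose, and their summed normalized count was 630.3 to 966 in WT and 5304 to 12720 in *mdx5cv*. All 7 markers of regenerating fibers rose too (198 to 229 in WT and 2539 to 9487 in *mdx5cv*), and *Mymx*, one of them, had no read in any WT muscle. Endothelial markers (8 of 9 lower, 4724 to 5407 and 2658 to 3312), adipocyte markers (4 of 7 tested lower, 974 to 1718 and 498 to 737) and erythrocyte markers (3 of 5 tested lower, 695 to 1248 and 343 to 736) fell. Of the slow-fiber markers 4 of 8 rose and 2 fell, and of the fast-fiber markers 3 of 8 fell. For the latter 1 fell with no filter on low values, and 1 rose and 1 fell with equal totals. Of the muscle identity markers 4 of 8 fell, or 2 without any 1 of WT muscles 1, 3 and 4 or *mdx5cv* muscle 1. With the slow-fiber markers, the falls were 1 without WT muscle 1 or 3. With the erythrocyte markers they ran from 2 to 5 when each muscle was left out in turn, the latter without *mdx5cv* muscle 2. The part of these cell types in the changes of the 10 genes was not tested.

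Muscle by muscle, *mdx5cv* muscle 4 had the highest macrophage markers, the median of the list being 3.90 log2 units over the WT mean there and 2.78 to 2.99 in the other *mdx5cv* muscles. This muscle also had the highest medians of the fibroblast (2.32), regenerating fiber (6.49) and slow-fiber (2.29) lists. Its medians of the glutathione transferase (-0.90), muscle identity (-0.86) and mitochondrial (-0.82) lists were the lowest. Being extreme in *mdx5cv* muscle 4 was therefore not particular to the macrophage markers. The same muscle had the highest deviation of *Gpx1* (1.51) and *Sod3* (1.19) and the lowest of *Sod2* (-1.27), *Prdx3* (-0.86) and *Sod1* (-0.83). *Cat* did not follow this order, and its lowest deviation was in *mdx5cv* muscle 1 (-1.40), where *mdx5cv* muscle 4 had -0.80. The adipocyte markers, which in WT muscle were highest in muscle 4 (1.54), had their lowest value in *mdx5cv* muscle 1 (-2.57), while *Cat* was lowest among WT muscles in muscle 4 (-0.48). Without *mdx5cv* muscle 4, all 6 calls among the 10 genes held.

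**Figure D5:**
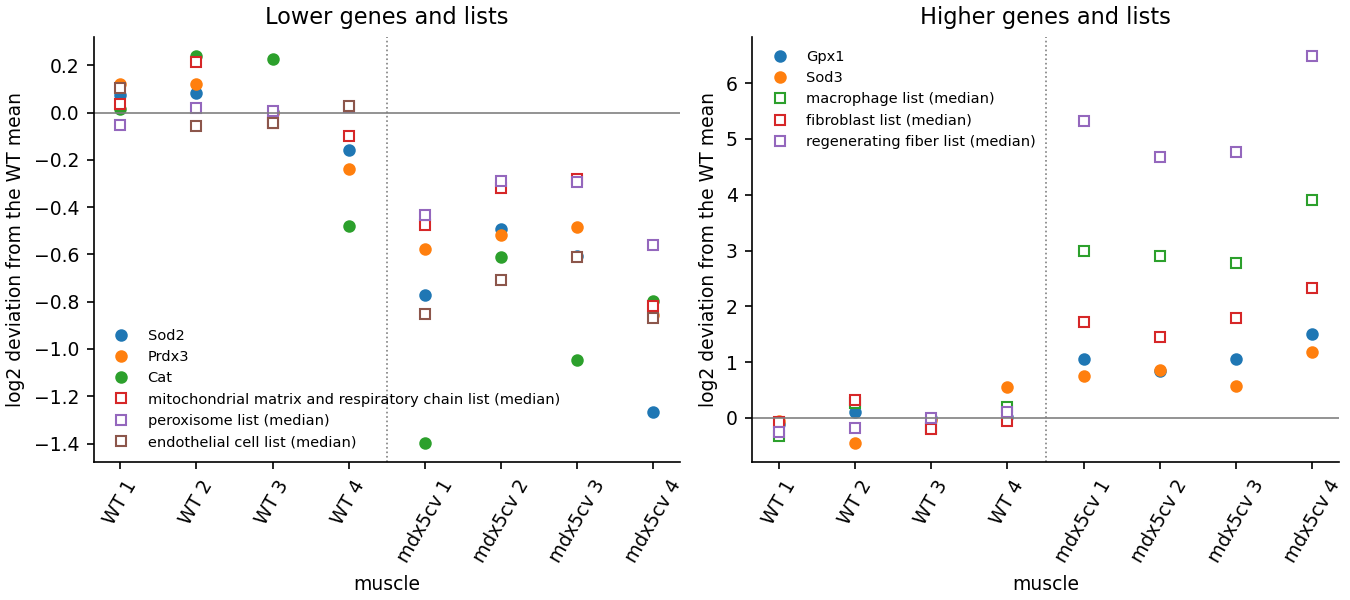
Log2 deviation from the WT mean in each TA muscle, for 3 lower genes with the medians of the mitochondrial, peroxisomal and endothelial lists (left) and for 2 higher genes with those of the macrophage, fibroblast and regenerating fiber lists (right). In *mdx5cv* muscle 4 *Gpx1* (1.51), *Sod3* (1.19) and the macrophage (3.90), fibroblast (2.32) and regenerating fiber (6.49) markers are highest. There *Sod2* (-1.27), *Prdx3* (-0.86) and the mitochondrial list (-0.82) are at their lowest.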

How the data were processed

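RNA of 4 WT and 4 *mdx5cv* TA muscles was isolated with Trizol and made into stranded total RNA libraries. The values deposited by the authors are a signal, in which the reads of each gene stand divided by the size factor of the library. Per the labels, the submitters' processing used FastQC, Trim Galore 0.6.4, STAR 2.6.0c, SAMtools 1.9, featureCounts, MultiQC 1.6, DESeq2 1.26.0, R 3.6.2 and the mm10 genome, and the counting setting for strand is not given in the sources used here. Whole reads were recovered from 100% of the values (tolerance 0.001). Replicates differed by a chi-square of 8.59 or more per degree of freedom, and all 8 were kept as separate libraries.

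Genes whose normalized counts averaged at least 10 were compared with limma 3.58.1 (lmFit, eBayes with a variance trend, two-sided) in R 4.3.3 on log2(normalized count + 1), a scale that understates the change of low genes. Benjamini-Hochberg adjustment ran over all 13677 genes. edgeR 4.0.16 and DESeq2 1.42.0 (19094 genes with an adjusted p) tested the recovered reads as alternatives, next to other pseudocounts (0.1 and 10), filters, scalings, a replicate block and the omission of each muscle. The ratios without each muscle and the length of the principal transcript were added after the data were seen. Scripts were tested on simulated data. Other steps used Python 3.11.15, pandas 2.3.3, numpy 2.4.6, scipy 1.17.1 and matplotlib 3.10.9. IDs were matched to GENCODE M21 on GRCm38 (55141 of 55401). The exons of the 10 genes overlapped those of 0 other genes.

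The 10 genes and the lists were chosen with earlier results of these data known. The genes named are the 10, *Dmd*, the up to 3 largest called rises and falls of each list, and the genes that supply an enzyme directly. Of 198 list symbols 1 had no match, and the result of 1 gene of the peroxisomal list is not reported here. *Fth1*, *Abcc1*, *Mymx*, *Gclc*, *Gclm*, *Slc7a11*, *Gpx7*, *Pex5* and *Acaa1a* lie outside this rule and were named after their values were seen.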

Additional observations from a re-analysis of the deposited data

Results flagged for a closer look

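In 52 sets of 4 muscles examined for a single distant value, 4 had one, and chance gives about 1 in 20 sets. The log2 ratio of *Sod3* to *Sod1* was -1.81 in *mdx5cv* muscle 4, against -2.83 to -2.65 in the other *mdx5cv* muscles, so the mean of that genotype rests in part on this muscle. The log2 ratio of *Cat* to *Gpx1* was 1.12 in WT muscle 4, against 1.73 to 1.84 in the other WT muscles, which places it nearer to the *mdx5cv* values. The log2 sum of the fast-fiber markers was 19.40 in *mdx5cv* muscle 4, against 19.94 to 20.00 in the others, and that of the muscle identity markers was 20.93, against 21.34 to 21.37. These 2 lists share *Myh4* and *Tnnt3*.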

How the results depend on the processing

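*Cat*, *Sod2*, *Gpx1* and *Sod3* kept their direction and their call in each of 20 alternatives, with log2 fold changes of -1.12 to -0.61, -0.88 to -0.43, 0.99 to 1.47 and 0.69 to 1.19. *Sod1* (-0.58 to -0.13) and *Prdx3* (-0.70 to -0.25) kept their direction and lost their call with equal totals. With equal totals 4 of the 10 genes were higher and 2 lower, 2 were higher past the fold threshold, and *Gpx4* (0.23), *Nqo1* (0.043) and *Txnrd1* (0.32) changed sign. When each muscle was left out *Txnrd1* ranged from -0.15 to 0.016, the latter without *mdx5cv* muscle 4. That scaling called 5444 genes higher and 820 lower in the whole table, against 2854 and 2743 with the size factors, which follows from its shift of all genes. With centring on the median 1 of the 10 genes, *Cat*, was lower past the fold threshold, and the whole table had 2426 genes higher and 3469 lower. When each muscle was left out in turn, 2 to 2 of the 10 genes were higher, 4 to 5 lower, 0 to 2 higher past the fold threshold (2 without WT muscle 4, 0 without *mdx5cv* muscle 4) and 0 to 1 lower past it (1 without WT muscle 4, *mdx5cv* muscle 2 or *mdx5cv* muscle 4). The differences in ratio kept their sign, with ranges of -2.29 to -1.96 for *Cat* to *Gpx1*, 1.06 to 1.38 for *Gpx1* to *Gpx4* and 1.11 to 1.45 for *Sod3* to *Sod1*. The smallest exact p is then 0.0571, so those ranges carry no call. The replicate block gave 2 genes higher and 4 lower. Muscles with the same number in both genotypes had correlations of their deviations of 0.031 to 0.146. Those of muscles with different numbers were -0.148 to 0.074. These ranges overlap in part, so whether the numbers pair the muscles cannot be told from them. Depth limits *Sod3* most, with 27 to 118 reads per library.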
